A study of Mus musculus with 6 samples.

Results

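The genes described here encode enzymes that write and erase marks on histones and on DNA: lysine methyltransferases, lysine demethylases, acetyltransferases, histone deacetylases, sirtuins, the polycomb repressive complex 2 (PRC2) core, DNA methyltransferases and TET dioxygenases. They were taken as every mouse symbol that begins with Kdm, Kmt, Hdac, Sirt, Kat or Setd followed by a number, plus Ezh1, Ezh2, Suz12, Eed, Dnmt1, Dnmt3a, Dnmt3b, Tet1, Tet2 and Tet3, with the katanin genes left out. This gave 69 genes of 22911 named genes on the array, measured by 138 of its 56605 probes. Of these genes, 67 were tested, and 119 of the probes passed the filter on dim signals. Kdm4d (1 probe) and Kdm5d (3 probes), both lysine demethylases, were not well above background on any array and were not tested. No probe was matched to Kmt2a.

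Total RNA of mouse tail tissue fibroblasts in culture was hybridised to 6 Agilent 1-colour arrays, 2 per group. All cells were of strain C57BL/6 and, per the labels, carried LH2F/F and CAG-Cre, that is, a conditional allele of the gene for lysyl hydroxylase 2 (LH2, gene Plod2), a collagen-modifying enzyme, with Cre driven by the broadly active CAG promoter. The control group, which has the same genotype, was kept in medium without tamoxifen. Group no.1 was in tamoxifen (+) medium and group no.2 in tamoxifen (-) medium, both after a tamoxifen treatment of 24 h. No group received tamoxifen with an intact gene, so tamoxifen, the handling that went with it and the loss of LH2 cannot be told apart. The comparison that the series sets out in its design text is no.1 with no.2. Nothing says whether arrays of 1 group came from separate cultures or animals, so the p-values measure only the spread between these arrays, which may be technical. The names of the deposited files also carry hours that the labels do not give: 0 for both control arrays, and 24 for the first and 48 for the second array of no.1 and of no.2. The groups follow the labels, but the arrays of a treated group may be different times rather than replicates, and every SE and p below would then hold any change between those times.

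Marks on histone tails are added by writers, removed by erasers and read by other proteins, and together they help set which genes a cell can use. PRC2 methylates lysine 27 of histone H3 through its catalytic subunit, Ezh2 or Ezh1, with Suz12 and Eed needed for activity. Ezh2 is typically abundant in dividing cells and Ezh1 in resting ones. Dnmt1 copies DNA methylation onto the new strand after replication, Dnmt3a and Dnmt3b set it on unmethylated DNA, and TET enzymes oxidise it. Sirtuins remove acetyl and other acyl groups in a reaction that uses NAD, in the nucleus (Sirt1, Sirt6, Sirt7), the cytoplasm (mainly Sirt2) or the mitochondria (Sirt3, Sirt4, Sirt5).

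Levels are on a log2 scale relative to the 75th percentile of signal on each array, from the probe of highest mean for each gene, and differences are log2 fold changes from limma with adjusted p over all 23060 genes tested. The share of probes well above background ran from 44.2% to 53.5% over the arrays. Plod2, the targeted gene, had processed signals of 42.1 and 34.9 in the control, 31.8 and 17.1 in no.1, with 13.3 and 8.59 in no.2, and its level fell by 2.13 in no.1 (adjusted p = 0.00613) and, in no.2, by 2.57 (adjusted p = 0.00768). Where its probe lies relative to the deleted part is not known, so this does not check the deletion. Of 10 fibroblast markers, 9 were tested, and Lum was not well above background on any array. Vim, Col1a1 and Col1a2 were well above background on all 6 arrays. In no.1, 4 fibroblast markers were called lower and 1 higher, and in no.2, 3 lower and 1 higher. Those called lower in no.1 were Dcn (value -3.725), Thy1 (-2.224), Pdgfrb (-2.139) and Pdgfra (-1.544). Fn1 was the marker called higher, with values of 1.225 in no.1 and 1.275 in no.2. Of 6 leukocyte markers, Ptprc, Adgre1 and Lyz2 were not well above background on any array, while Itgam, Cd68 and Csf1r were on all 6, and the summed level of the list ran from 44.5 to 47.6 times the 75th percentile in the control and from 27.5 to 35.1 on the treated arrays; Csf1r fell by 2.40 in no.1 and 2.07 in no.2. Of the other lists, 1 of 5 keratinocyte (Krt10), 1 of 5 muscle (Acta1), 2 of 3 pericyte (Cspg4 and Mcam), 0 of 5 endothelial and 0 of 4 Schwann cell markers were well above background on all 6 arrays, and Krt5, Krt14, Myod1, Cdh5 and Sox10 on none. The muscle marker Des (well above background on 4 arrays) and Mcam fell in no.1, by 2.43 and 0.77. S100b, a Schwann cell marker seen on the control arrays alone, was called lower in both comparisons. The part of these cell types in the changes below was not tested. The control arrays lay closer to each other (robust SD of their probe differences 0.154) than the arrays of no.1 (0.418) or no.2 (0.386). Slide row 1 held the control arrays and row 2 the rest, so any effect of the row cannot be told apart from the comparisons with the control. Relative to the spike-in controls, the 75th percentile of signal was higher in the other arrays, at -2.18 and -2.22 in no.1, with -3.16 and -2.52 in no.2 against -4.16 and -4.17 in the control on the log2 scale. Scaling to the spike-ins therefore moved the median fold change of all genes to 1.85 in no.1 and 1.22 in no.2, and every direction below is relative to the bulk of genes on an array.

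In no.1 against the control, 34 of the 67 enzymes passed an adjusted p of 0.05, 23 higher and 11 lower. Over all genes 47.8% were called, 21.4% higher and 26.4% lower, so the share of the enzymes that was called, 50.7%, was near the background. Their median fold change was 0.13, against -0.12 for all genes. In no.2 against the control, 15 were called, 12 higher and 3 lower, which is 22.4% of the enzymes against 28.3% of all genes (12.1% higher and 16.2% lower). Their median was 0.29, against -0.10 for all genes. These shares and medians of all genes are the background for the counts of each role and list below. The comparisons of no.1 and no.2 with the control share the control arrays, so their values are set side by side and not counted as independent. Among the calls, those of Hdac11 in no.1 and Hdac9 in no.2 rest on treated arrays where the probe was not well above background. At an unadjusted p under 0.05 there were 41 enzymes in no.1 (56.7% of all genes) and 26 in no.2 (44.9%). The groups did not overlap for 32 enzymes that were higher and 23 that were lower in no.1 (36.7% and 44.7% of all genes), and for 36 and 15 in no.2 (33.2% and 41.3%). With both control arrays averaged into 1 sample, 9 enzymes were called higher and 2 lower in no.1, and 1 higher and 1 lower in no.2. With each of the 6 arrays left out in turn, 9 of the 34 calls in no.1 (Dnmt1, Dnmt3b, Eed, Ezh2, Hdac11, Kmt5a, Setd7, Sirt4 and Suz12) and 2 of the 15 in no.2 (Ezh2 and Hdac9) held each time. Each of the other 25 and 13 calls was lost without 1 or both of the control arrays when these were left out singly, and most of them also without an array of the treated group.

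The split between higher and lower depended on the scaling between arrays, and the plot of fold changes under 4 scalings shows the shift. In no.1, 28 enzymes rose and 2 fell with the median probe as reference (32.8% and 14.3% of all genes), 25 and 12 did so after quantile normalization (25.9% and 21.8%), and 64 and 0 with the spike-ins as reference (82.3% and 1.76%). In no.2 the corresponding counts were 21 and 1 (21% and 9.44% of all genes), 17 and 3 (16.2% and 13.5%), and 60 and 1 (65.6% and 2.19%). Scaling to the median probe or to the spike-ins shifts all genes of an array alike and so leaves their order within an array as it was.

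**Figure D1:**
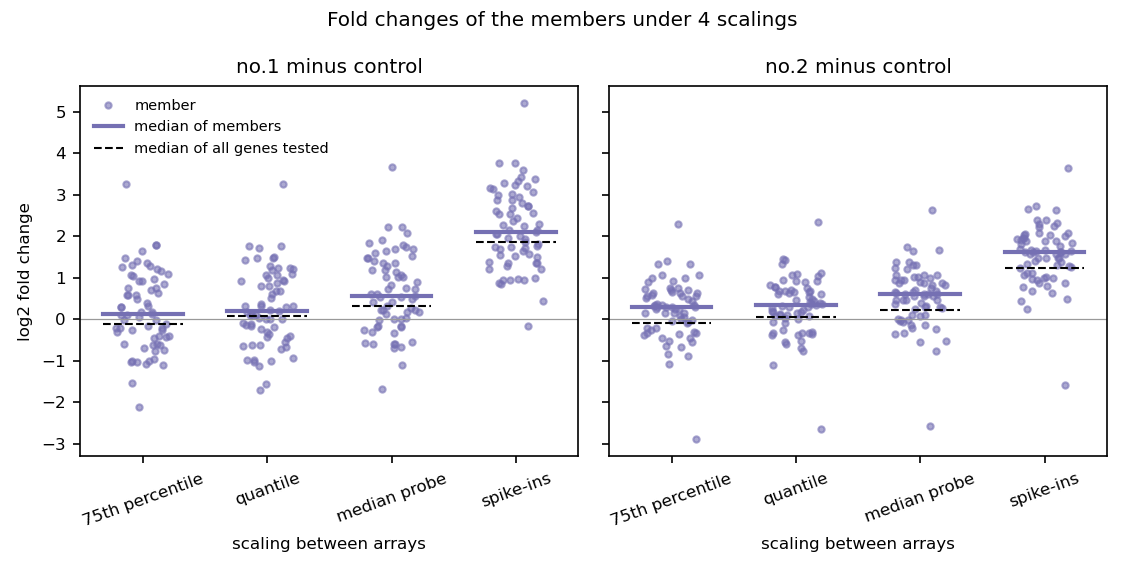
Log2 fold change of each tested enzyme (points) against the control in no.1 (left) and no.2 (right) under 4 ways of scaling the arrays, with the median of the enzymes (solid line) and of all genes tested (dashed line). Under spike-in scaling the median of all genes stood at 1.85 in no.1 and 1.22 in no.2, and the enzymes moved up with it.

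The polycomb pair of catalytic subunits moved in opposite directions. Promoter stretches of both are shown here, with those of Suz12 and Sirt4, because Ezh2 and Ezh1 went opposite ways, and because Ezh2, Suz12 and Sirt4, called in no.1, each have a match to the E2F motif searched. The stretches come from RefSeq, build GRCm38.p6, and run 5′ to 3′ over 280 bases on the strand of the gene. Capitals mark the match; Ezh1 has none.
Ezh2 (chr6:47595001-47595280, minus strand): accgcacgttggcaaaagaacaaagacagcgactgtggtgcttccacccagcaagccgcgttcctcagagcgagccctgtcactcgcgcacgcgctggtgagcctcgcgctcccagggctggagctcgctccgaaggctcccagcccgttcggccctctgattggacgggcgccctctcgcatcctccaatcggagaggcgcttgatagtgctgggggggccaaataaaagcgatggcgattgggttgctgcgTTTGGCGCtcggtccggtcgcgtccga
Ezh1 (chr11:101226434-101226713, minus strand): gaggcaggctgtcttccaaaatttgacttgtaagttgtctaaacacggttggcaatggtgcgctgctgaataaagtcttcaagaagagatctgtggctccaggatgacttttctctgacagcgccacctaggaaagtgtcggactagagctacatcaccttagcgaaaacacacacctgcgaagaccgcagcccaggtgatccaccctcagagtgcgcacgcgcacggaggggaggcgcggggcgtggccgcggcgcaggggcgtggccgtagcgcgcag
Suz12 (chr11:79992856-79993135, plus strand): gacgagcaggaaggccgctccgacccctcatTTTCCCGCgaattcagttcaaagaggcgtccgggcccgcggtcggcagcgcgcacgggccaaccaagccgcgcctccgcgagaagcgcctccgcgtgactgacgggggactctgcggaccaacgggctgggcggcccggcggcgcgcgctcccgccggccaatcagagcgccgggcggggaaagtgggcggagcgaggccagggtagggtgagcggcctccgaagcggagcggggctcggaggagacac
Sirt4 (chr5:115484268-115484547, minus strand): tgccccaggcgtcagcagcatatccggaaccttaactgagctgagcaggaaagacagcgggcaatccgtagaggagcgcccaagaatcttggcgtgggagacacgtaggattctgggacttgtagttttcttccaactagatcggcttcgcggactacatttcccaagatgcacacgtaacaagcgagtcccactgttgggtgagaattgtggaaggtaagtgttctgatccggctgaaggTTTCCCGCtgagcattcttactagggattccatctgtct
The E2F motif was searched on both strands as TTTGGCGC, TTTCCCGC, TTTCGCGC or TTTGCCGC in windows of 300 bases around the starts of genes. It was found in 2.26% of 32851 windows and in 2.6% of genes, and in 6 of the 57 enzymes that have a window. These were Ezh2 and Dnmt1, which rose in both comparisons with the control, Suz12, which rose in no.1, Sirt4, which fell in both, and Kmt5c and Kat2a, which were not called in either. The CHR motif (TTTGAA or TTCGAA) was in 19.2% of windows, 21.7% of genes and 16 of the 57 enzymes (28.1%), and CCAAT in 37.4% of windows, 41.1% of genes and 28 of the 57 (49.1%). Matches are a description of letters in these windows.

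Ezh2 had the largest rise of the 67 enzymes in both comparisons with the control. Its levels were -0.94 and -0.43 in the control, 2.86 and 2.26 in no.1, with 1.62 and 1.62 in no.2. Both groups lay above the control without overlap, and no.1 above no.2. The rise was 3.24 (SE 0.29, adjusted p = 0.00175, 9.46-fold) in no.1 and 2.30 (adjusted p = 0.00644, 4.93-fold) in no.2. The array holds 5 probes for Ezh2, and each was called higher in no.1, by 2.71 to 3.24, and in no.2, by 1.87 to 2.33. It was called higher under all 17 alternative settings in each comparison.

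Ezh1, the other catalytic subunit, did the reverse in no.1. Its levels were 3.41 and 3.49 in the control, 2.25 and 2.62 in no.1, with 2.70 and 2.91 in no.2. It fell by 1.02 in no.1 (adjusted p = 0.013), whereas the value in no.2, -0.65, missed the threshold (adjusted p = 0.0696). Under spike-in scaling its value was 0.94 in no.1, above the control, and the call was lost with either control array or the first no.1 array left out (adjusted p between 0.0558 and 0.0834), with the control arrays averaged (adjusted p = 0.0764) and with the median probe as reference (-0.59, adjusted p = 0.0927). With normexp background correction the value in no.1 was -0.36 (adjusted p = 0.0464). The difference between Ezh2 and Ezh1 within an array is the same under any scaling that shifts a whole array, such as the median probe or the spike-ins. Relative to its control mean, with the control arrays at -0.21 and 0.21, that difference was 4.75 and 3.78 in no.1, with 3.06 and 2.85 in no.2, so every treated array had shifted towards Ezh2. Its mean of 4.27 in no.1 and 2.95 in no.2 was 4.20 and 2.87 after quantile normalization, and 2.63 and 1.60 with normexp background correction.

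Suz12 and Eed, the partners that PRC2 needs for activity, rose in no.1. Suz12 was at -0.54 and -0.46 in the control, 1.11 and 0.83 in no.1, with 0.16 and -0.15 in no.2. It rose by 1.47 in no.1 (adjusted p = 0.005), and its other probe by 1.35. Eed was at 2.18 and 2.23 in the control, 3.85 and 3.38 in no.1, with 2.84 and 2.81 in no.2, and rose by 1.41 in no.1 (adjusted p = 0.00595). In no.2 neither passed, with values of 0.51 for Suz12 (adjusted p = 0.124) and 0.62 for Eed (adjusted p = 0.084), although both no.2 arrays lay above both control arrays. Of the 8 accessory subunits of PRC2 listed, 6 rose and 1 fell in no.1 (median 1.24), and 5 rose in no.2 (median 0.87) (8 higher and 0 lower in each under spike-in scaling). Beside this, 21.4% of all genes rose and 26.4% fell in no.1 (median -0.12), and 12.1% and 16.2% in no.2 (median -0.10). Phf19 and Mtf2, polycomb-like proteins that help bring the complex to chromatin, rose by 1.52 and 1.53 in no.1 and by 1.48 and 0.91 in no.2. The histone-binding subunit Rbbp7 rose by 1.30 in no.1 and 0.82 in no.2, and Epop by 2.15 and 1.78. The 1 that fell was Phf1 (-0.74 in no.1). With the control arrays averaged, 5 of these accessory subunits remained called higher in no.1 and 0 in no.2.

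**Figure D2:**
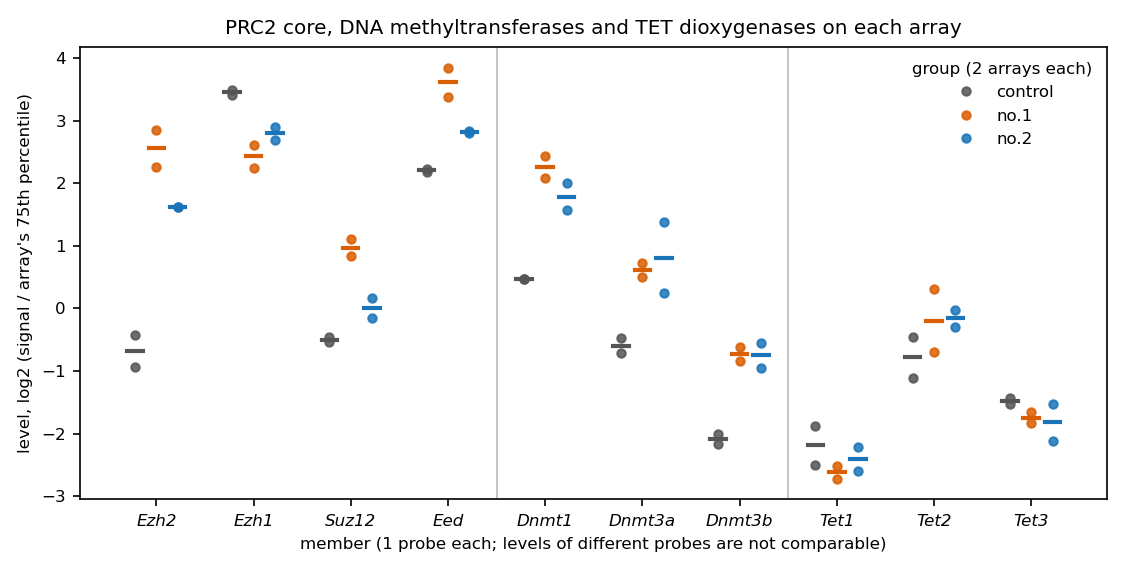
Level on each array (points; bars mark the mean of 2 arrays) of the PRC2 core, DNA methyltransferase and TET genes in the control, no.1 and no.2; the vertical axis is log2 of signal over the array's 75th percentile. Ezh2, Dnmt1 and Dnmt3b lay higher on all treated arrays than on the control arrays, Ezh1 lay lower, and none of the TET genes was called by the probe shown.

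All 3 DNA methyltransferases rose in both comparisons. Dnmt1, the maintenance enzyme, was at 0.47 and 0.47 in the control, 2.44 and 2.09 in no.1, with 2.00 and 1.57 in no.2. It rose by 1.80 in no.1 (SE 0.24, adjusted p = 0.00407, 3.47-fold) and by 1.32 in no.2 (adjusted p = 0.0157, 2.49-fold). The treated arrays did not overlap the control, and no.1 lay above no.2 by a margin that did not pass (0.48, adjusted p = 0.351). Dnmt3a was at -0.48 and -0.71 in the control, 0.72 and 0.50 in no.1, with 0.25 and 1.38 in no.2, where the arrays were far apart. Its second probe, at 0.81 and 0.68, was well above background on 4 arrays only and was called in no.1 only. By its main probe Dnmt3a rose by 1.20 in no.1 (adjusted p = 0.0432), and by 1.41 in no.2 (adjusted p = 0.0409). The call in no.1 was lost without either control array or either no.1 array (adjusted p between 0.0978 and 0.171). In no.2 the value was 0.84 (adjusted p = 0.0744) without the second no.2 array and 1.97 without the first, and the call was also lost without any one of the control or no.1 arrays (adjusted p between 0.0714 and 0.157). With normexp background correction Dnmt3a was at 0.68 and 0.70 (adjusted p = 0.0478 and 0.0703). Dnmt3b was at -2.17 and -2.01 in the control, -0.61 and -0.84 in no.1, with -0.94 and -0.55 in no.2, and rose by 1.36 in no.1 (adjusted p = 0.00661) and by 1.34 in no.2 (adjusted p = 0.013). Its second probe that passed the filter did not follow, with values of -0.56 and -0.56 that were not called. With normexp background correction the values of Dnmt3b shrank to 0.12 and 0.23 and were not called (adjusted p = 0.287 and 0.112). With the control arrays averaged, Dnmt1 and Dnmt3b stayed called in no.1, and none of the 3 in no.2.

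None of the 3 TET genes was called by its probe of highest mean. Tet1 was at -1.87 and -2.50 in the control, -2.72 and -2.52 in no.1, with -2.59 and -2.21 in no.2 (-0.43 and -0.22 against the control, adjusted p = 0.244 and 0.578). Tet2 was at -0.45 and -1.11, -0.70 and 0.31, and -0.30 and -0.02 in the same order (0.59 and 0.62, adjusted p = 0.262 and 0.267). Its second, dimmer probe was called higher in both comparisons (1.15 and 1.42, adjusted p = 0.0269 and 0.0247). That probe was well above background on 4 arrays only, with control levels of -4.19 and -5.03, so the size of its rise is not known. Tet3 was at -1.43 and -1.52, -1.84 and -1.66, and -1.53 and -2.11 (-0.27 and -0.34, adjusted p = 0.402 and 0.329). The spread between arrays of 1 group was of the size of these differences. Under spike-in scaling all 3 were called higher in both comparisons.

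Of 13 partners and readers of DNA methylation, 9 rose and 2 fell in no.1, and 5 rose and 2 fell in no.2, with medians of 1.40 and 0.88 (8 and 2 higher and 2 lower in each with the control arrays averaged; under spike-in scaling 11 rose and 1 fell in no.1, and 10 and 2 in no.2). Uhrf1, which recruits Dnmt1 to hemimethylated DNA, rose by 2.24 in no.1 and 1.82 in no.2. Pcna, the replication clamp, rose by 2.02 in no.1, and Mbd4, a glycosylase of mismatched bases at methylated sites, by 1.70 in no.2. The 2 that fell were Dnmt3l, a cofactor of Dnmt3a without catalytic activity, by 4.35 in no.1 (adjusted p = 0.000804) and 4.04 in no.2, and Mbd1, a reader of methylated CpG, by 2.45 and 2.42. Dnmt3l was at 1.58 and 1.80 in the control and between -2.90 and -2.07 on the 4 treated arrays, so its groups stood far apart.

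Of 13 proliferation markers, 11 rose in no.1 and 9 in no.2, and none fell, with medians of 2.19 and 1.55 (13 and 12 higher under spike-in scaling). Of all genes, 21.4% rose in no.1 and 12.1% in no.2, with medians of -0.12 and -0.10. With the control arrays averaged, 9 of the markers were called higher in no.1 and 3 in no.2. Top2a, a topoisomerase of dividing cells, rose by 3.14 in no.1 and 2.22 in no.2, and Mki67 by 3.61 and 2.05. Over the list, values ran from -0.51 (E2f1, not called) to 4.16 (Ccna2) in no.1. The part of this shift in the changes of Ezh2, Dnmt1 and their partners was not tested.

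Among the 7 sirtuins, 5 fell and 1 rose in no.1, where 26.4% of all genes fell and 21.4% rose. Sirt3, Sirt4, Sirt5, Sirt6 and Sirt7 fell and Sirt1 rose, whereas Sirt2 (-0.59, adjusted p = 0.0674) was not called; in no.2 only Sirt4 and Sirt7 passed. The falls were relative to the bulk of genes: scaled to the spike-ins, 5 of the 7 sirtuins were called higher in no.1 and none lower, and scaled to the median probe Sirt4 alone of these 5 still passed as lower (adjusted p = 0.00994, against 0.0592 to 0.101 for the others).

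Sirt4, a mitochondrial sirtuin, had the largest fall of the family. It was at 1.31 and 1.48 in the control, -0.32 and 0.04 in no.1, with 0.26 and 0.35 in no.2. The fall was 1.53 in no.1 (value -1.53, SE 0.21, adjusted p = 0.00448, 2.90-fold) and 1.09 in no.2 (value -1.09, adjusted p = 0.0187). All 3 of its probes fell in both comparisons, by 1.51 to 2.04 in no.1 and by 1.05 to 1.69 in no.2. Its fall in no.1 was the only one of the family that held with the control arrays averaged (adjusted p = 0.0308).

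Sirt5, a mitochondrial desuccinylase, was at 1.48 and 1.67 in the control, 0.21 and 0.70 in no.1, with 0.76 and 1.02 in no.2 (-1.12, adjusted p = 0.0145, in no.1). Sirt3, the main mitochondrial deacetylase, was at 2.46 and 2.47, 1.34 and 1.65, and 2.18 and 1.98 (-0.97, adjusted p = 0.013). Both had their no.2 arrays between the other groups, and in no.2 neither passed (-0.68 and -0.39). Sirt6, a chromatin deacetylase of histone H3, was at 2.74 and 2.86, 1.63 and 1.91, and 2.50 and 2.37 (-1.03, adjusted p = 0.0105), and its other probe fell by 1.37. Sirt7, which acts in the nucleolus, was at 3.43 and 3.52, 2.35 and 2.42, and 2.75 and 2.44 (-1.09, adjusted p = 0.00878, and -0.88 in no.2, adjusted p = 0.0275). For Sirt3, Sirt5, Sirt6 and Sirt7 the call in no.1 was lost when either control array was left out (adjusted p between 0.0516 and 0.0883).

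Sirt1, the nuclear deacetylase that is the best studied of the family, went the other way. It was at -0.60 and -0.60 in the control, 0.31 and 0.30 in no.1, with -0.36 and -0.14 in no.2, and rose by 0.91 in no.1 (adjusted p = 0.0124), with 0.35 in no.2 (adjusted p = 0.202). Within an array, and so unchanged by any scaling that shifts a whole array, Sirt1 minus Sirt4 stood 2.63 and 2.25 above its control mean in no.1 and 1.37 and 1.50 above it in no.2, with the control arrays at 0.09 and -0.09. Its mean of 2.44 in no.1 and 1.44 in no.2 was 2.47 and 1.47 after quantile normalization, and 1.17 and 0.58 with normexp background correction. This pair was chosen after its values were seen.

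**Figure D3:**
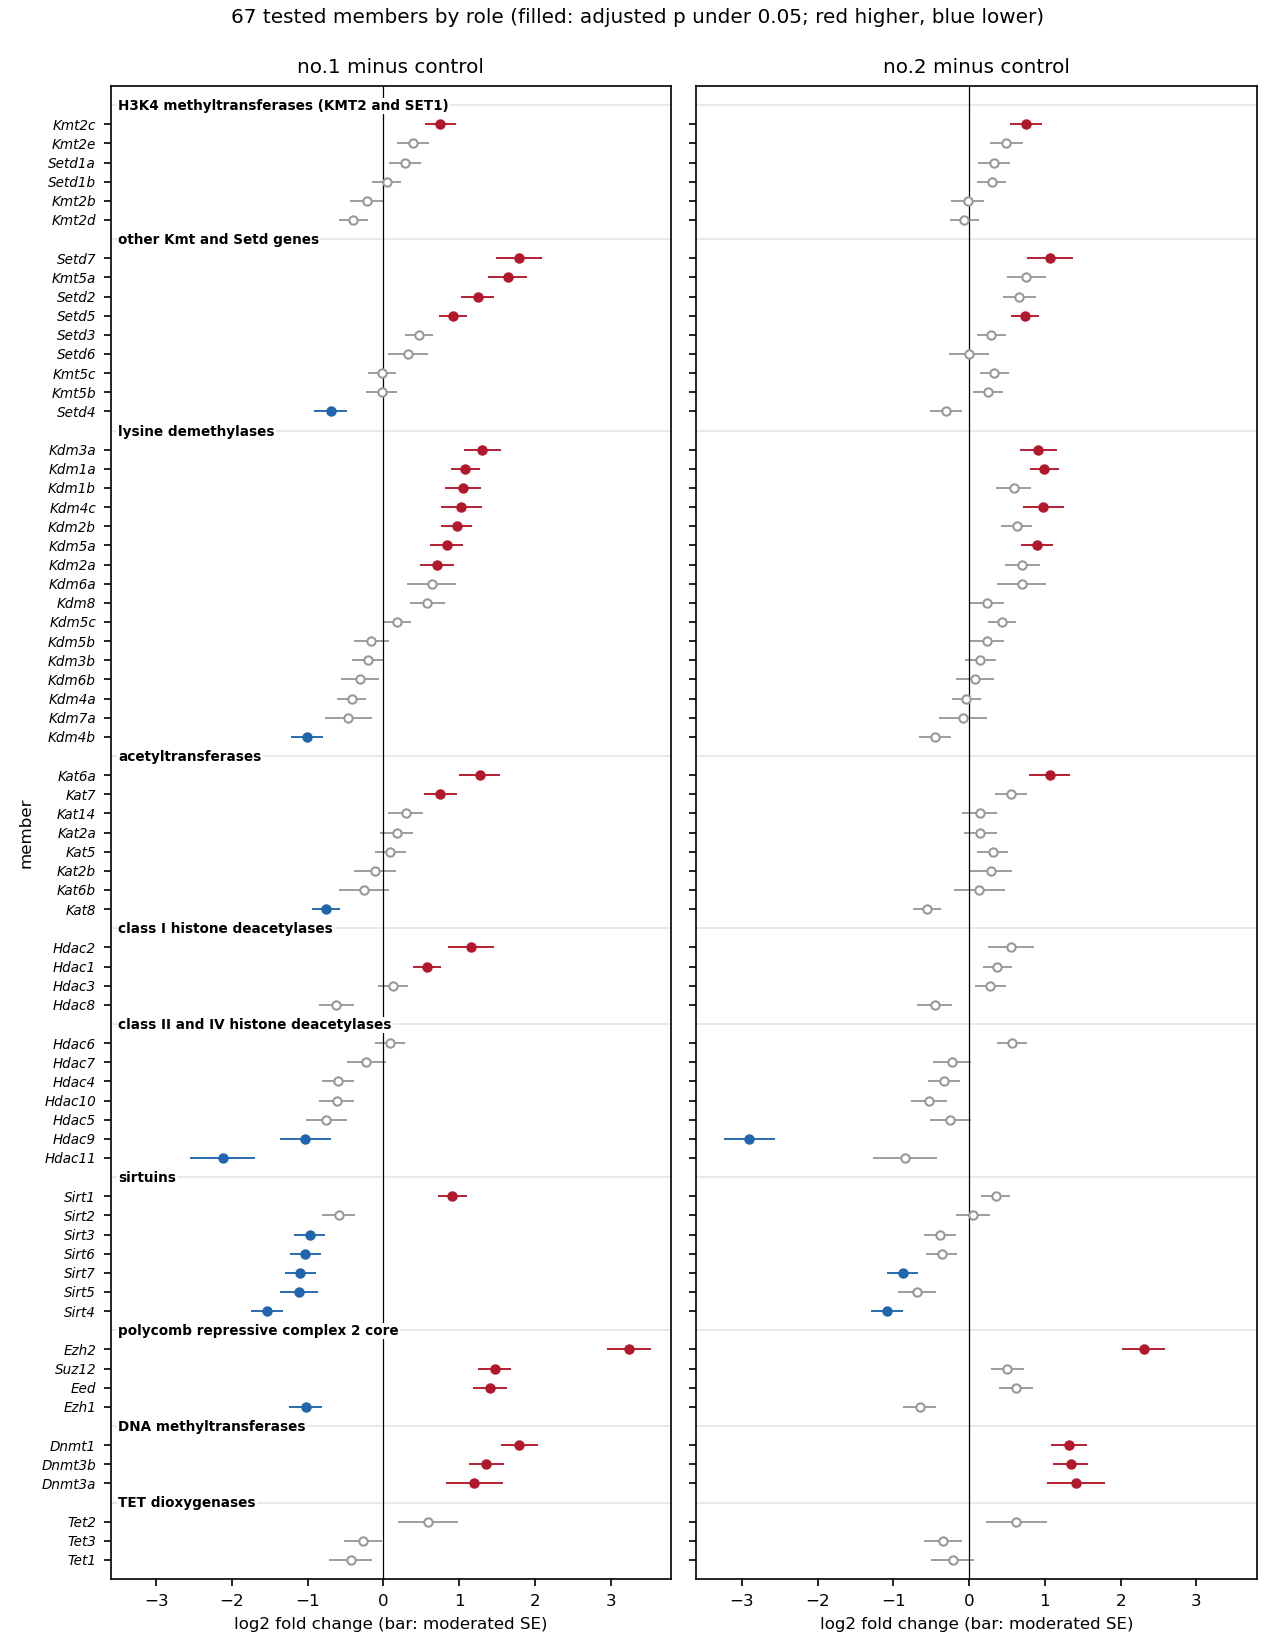
Log2 fold change (point) with the moderated standard error (bar) of each of the 67 tested enzymes in no.1 (left) and no.2 (right) against the control, ordered within each role by the value in no.1. Filled red and blue points passed an adjusted p of 0.05; in no.1 these were 23 higher and 11 lower, with Ezh2 farthest to the right and Hdac11 and Sirt4 farthest to the left.

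Of the classical deacetylases, 2 of 4 class I and 2 of 7 class II and IV genes were called in no.1, against 47.8% of all genes. In no.2, 0 and 1 were called, against 28.3% of all genes. Of the 4 class I genes, Hdac1 (5.64 and 5.68 in the control, 6.21 and 6.27 in no.1) and Hdac2 (-2.68 and -3.01, then -1.32 and -2.04), paired in the Sin3, NuRD and CoREST complexes, rose in no.1 by 0.58 and 1.16 (adjusted p = 0.0441 and 0.0236). The second probe of Hdac1 did not follow (-0.13), and with normexp background correction Hdac2 was at -0.19. Hdac3 was not called, nor was Hdac8 by its main probe (-0.62, adjusted p = 0.0671), although its dimmer probe was called lower in both comparisons (-1.40 and -1.07). In no.2 none of the 4 passed, with values from -0.45 to 0.55.

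Of the 7 class II and IV deacetylases none rose and 2 fell in no.1, and 1 fell in no.2 (under spike-in scaling 6 rose in no.1, and 5 rose and 1 fell in no.2). Hdac9, a class IIa deacetylase known from muscle and immune cells, was at -2.28 and -3.17 in the control, -3.65 and -3.85 in no.1, with -5.40 and -5.84 in no.2. It was well above background on 1 control array, both no.1 arrays and none of the no.2 arrays, so its level in no.2 is not measured but bounded, no fold is given, and the call in no.2 rests on signals below background. In no.1 its value was -1.03 (adjusted p = 0.0488). That call was lost with the first control array left out (-0.59, adjusted p = 0.244), with either array of no.1 or of no.2 left out (adjusted p between 0.0661 and 0.166), after quantile normalization (-0.68, adjusted p = 0.16), with the median probe as reference (-0.60, adjusted p = 0.158) and with the control arrays averaged (adjusted p = 0.0799). Only 1 of its 5 probes passed the filter. Hdac11, the class IV enzyme, was at -2.50 and -2.74 in the control and -5.32 and -4.16 in no.1, where it was not well above background; it was at least 3.04-fold lower there (adjusted p = 0.011), with the dim group taken at the higher of its own signal and the lowest signal well above background on each array. Its no.2 arrays were at -3.80 and -3.13. Under spike-in scaling the value of Hdac11 in no.1 was -0.16 and was not called. Hdac4, Hdac5, Hdac6, Hdac7 and Hdac10 were not called in either comparison. Of 18 subunits of deacetylase corepressor complexes, 7 rose and 2 fell in no.1 and 6 rose in no.2 (18 and 17 rose under spike-in scaling, with none lower), among them the scaffold Sin3a by 1.25 and 1.06 and Tbl1xr1, a subunit of the NCoR complex, by 0.92 and 1.03. Those that fell in no.1 were Sin3b (-0.87) and Sap18 (-0.65). With the control arrays averaged, most calls of this list were lost in no.1 and all of them in no.2.

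The lysine methyltransferases outside the KMT2 and SET1 families held some of the larger rises. Of the 9 genes, Setd7, Kmt5a, Setd2 and Setd5 rose in no.1 and Setd4 fell, and Setd7 and Setd5 rose in no.2. The share of all genes called was 47.8% in no.1 and 28.3% in no.2. Setd7, which adds a single methyl group to histone H3 lysine 4 and also methylates several other proteins, was at 1.09 and 1.21 in the control, 3.33 and 2.55 in no.1, with 2.06 and 2.37 in no.2 (1.79 and 1.06, adjusted p = 0.00677 and 0.0453). Kmt5a, the enzyme that adds the first methyl group to histone H4 lysine 20, was at 2.54 and 2.59, 4.52 and 3.89, and 3.32 and 3.33 (1.64, adjusted p = 0.00563, and 0.75, adjusted p = 0.0709). Kmt5b and Kmt5c, which add further methyl groups at the same lysine, stood at -0.02 and -0.01 in no.1 and were not called by their probes of highest mean. Kmt5b had 6 probes that passed the filter, the most of any of the enzymes. The other 5 had values above 0 in both comparisons, and of these 1 was called higher in both (1.54 and 1.53, adjusted p = 0.0164 and 0.0286) and another in no.1 (0.84, adjusted p = 0.0355). The probe called in both was well above background on 4 arrays only, with control levels of -3.74 and -2.90, so the size of its rise is not known.

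Setd2, which trimethylates histone H3 lysine 36 along transcribed genes, was at 1.63 and 1.48 in the control, 2.75 and 2.86 in no.1, with 2.02 and 2.42 in no.2. It rose by 1.25 in no.1 (adjusted p = 0.00754), and another of its probes by 1.09. A further passing probe, at 1.55, was well above background on 2 arrays only, so the size of its rise is not known. Setd5 was at 3.50 and 3.39, 4.34 and 4.39, and 4.11 and 4.25 (0.92 and 0.73, adjusted p = 0.0112 and 0.0348). Setd4 was at 1.65 and 1.80, 0.84 and 1.22, and 1.36 and 1.47 (-0.69 in no.1, adjusted p = 0.0408, and 1.27 under spike-in scaling). Setd3, a methyltransferase of actin, and Setd6 were not called. Setd7, Kmt5a, Suz12, Eed, Dnmt1 and Ezh2 were called higher in no.1 under each of the 17 alternative settings, and no other enzyme was called in the same direction under all of its settings there.

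Of the KMT2 and SET1 genes, most of which encode catalytic subunits of the COMPASS complexes that methylate H3 lysine 4, 1 of 6 tested was called. Kmt2c rose in both comparisons, from -0.91 and -1.19 in the control to -0.19 and -0.40 in no.1, with -0.38 and -0.23 in no.2 (0.75 in each, adjusted p = 0.0287 and 0.0443). Kmt2b, Kmt2d, Kmt2e, Setd1a and Setd1b were not called, with values from -0.40 to 0.39 in no.1 and from -0.06 to 0.49 in no.2. Of 10 COMPASS subunits listed, 4 rose in no.1 and 3 in no.2, where 21.4% and 12.1% of all genes rose (10 in each under spike-in scaling). The subunits that rose were Paxip1 (2.07 and 1.48), Ncoa6 and Hcfc1 in both, and Dpy30 in no.1. Of 12 other histone methyltransferases, 5 rose in no.1 and 3 in no.2 (12 and 10 under spike-in scaling), led by Nsd2, an H3 lysine 36 enzyme (2.59 and 2.07), and Dot1l, the H3 lysine 79 enzyme (1.81 and 1.15). Of 8 tested H3 lysine 9 methyltransferases and HP1 genes, 5 rose and 2 fell in no.1 and 5 rose in no.2 (8 and 7 rose under spike-in scaling), among them Cbx3 (1.94 and 1.47), an HP1 protein, and Setdb1 (1.60 and 1.41), while Suv39h2 and Ehmt2 fell in no.1 (-0.77 and -0.74). Of the 18 subunits of polycomb repressive complex 1, 9 rose and 1 fell in no.1 and 5 rose in no.2 (17 rose in each under spike-in scaling). In no.1 the largest values were those of Bmi1 (1.81), Yaf2 (1.72), Pcgf6 (1.63) and Pcgf3 (1.55), and the 1 that fell was Ring1 (-1.35), a ubiquitin ligase subunit. With the control arrays averaged, the lists of COMPASS, other methyltransferase, H3 lysine 9 and HP1, and polycomb repressive complex 1 genes each lost calls in no.1. In no.2 they lost all of their calls.

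Demethylases were the largest group, with 18 genes and 16 tested. In no.1, 7 rose and 1 fell, against 47.8% of all genes called (21.4% higher and 26.4% lower). In no.2, 4 rose, against 28.3% of all genes called (12.1% higher and 16.2% lower). In no.1, Kdm1a, Kdm1b, Kdm2a, Kdm2b, Kdm3a, Kdm4c and Kdm5a rose and Kdm4b fell; in no.2, Kdm1a, Kdm3a, Kdm4c and Kdm5a rose and none fell. Kdm3a, a demethylase of H3 lysine 9, was at 1.51 and 1.32 in the control, 2.83 and 2.61 in no.1, with 2.08 and 2.58 in no.2 (1.30 and 0.91, adjusted p = 0.00893 and 0.0393). Kdm1a, the flavin-dependent demethylase LSD1, was at 3.18 and 3.02, 4.24 and 4.13, and 4.03 and 4.15 (1.08 and 0.99, adjusted p = 0.00768 and 0.0175). Its treated groups overlapped each other and stood clear of the control.

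Kdm5a, an H3 lysine 4 demethylase, was at 1.45 and 1.54 in the control, 2.19 and 2.47 in no.1, with 2.24 and 2.54 in no.2 (0.83 and 0.90, adjusted p = 0.0234 and 0.0308). Kdm4b and Kdm4c, close relatives that act on H3 lysine 9, went opposite ways in no.1 by the main probe of each. Kdm4b was at 3.08 and 2.996, 1.89 and 2.17, and 2.72 and 2.46 (-1.01 in no.1, adjusted p = 0.0124, and 0.95 under spike-in scaling). Kdm4c was at -1.15 and -0.69, 0.07 and 0.14, and -0.21 and 0.33 (1.03 and 0.98, adjusted p = 0.0244 and 0.0429). The second probe of Kdm4c was not called in either comparison (0.44 and 0.37, adjusted p = 0.161 and 0.263). Kdm1b was at -0.56 and -0.77, 0.61 and 0.17, and -0.14 and -0.01, and rose by 1.05 in no.1 (adjusted p = 0.0142). The other tested demethylases, Kdm3b, Kdm4a, Kdm5b, Kdm5c, Kdm6a, Kdm6b, Kdm7a and Kdm8, were not called in either comparison, with values from -0.46 to 0.64 in no.1. Of 7 tested demethylases and relatives without a Kdm symbol, 1 rose and 1 fell in no.1, and 1 fell in no.2 (under spike-in scaling 6 rose in no.1 and 5 in no.2, with 1 lower in each). The 1 that rose was Phf2 (0.69 in no.1), and the 1 that fell was Hr, a demethylase and corepressor of nuclear receptors (values -4.91 and -4.37). Hr was well above background on 2 arrays only, those of the control. Its levels on the treated arrays are therefore not measured but bounded, and the size of its fall is not known.

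Of the 8 acetyltransferases, Kat6a and Kat7 rose and Kat8 fell in no.1, and Kat6a rose in no.2. Beside these calls, 47.8% of all genes were called in no.1 and 28.3% in no.2. Kat6a, of the MYST family, was at 0.34 and 0.09 in the control, 1.66 and 1.32 in no.1, with 1.00 and 1.56 in no.2 (1.27 and 1.06, adjusted p = 0.0126 and 0.0341). The second, dimmer probe of Kat6a was not called in either comparison (0.24 and 0.59, adjusted p = 0.688 and 0.36). Kat8, which acetylates histone H4 lysine 16, was at 4.13 and 4.11, 3.31 and 3.41, and 3.60 and 3.53 (-0.76, adjusted p = 0.0184, and -0.55, adjusted p = 0.0668, with 1.20 in no.1 under spike-in scaling). Kat7, which acts near replication origins, was at 3.18 and 3.24, 4.07 and 3.85, and 3.94 and 3.58 (0.75 in no.1, adjusted p = 0.0317). Kat2a, Kat2b, Kat5, Kat6b and Kat14 were not called in either comparison, although 1 of the other probes of Kat6b was called lower in no.1 (-0.93, adjusted p = 0.0153). Of 18 acetyltransferases and partners without a Kat symbol, 8 rose in no.1 and 3 in no.2 and none fell (18 in each under spike-in scaling). Hat1, which acetylates newly made histone H4, had the largest of these rises, 2.18 and 1.42. With the control arrays averaged, most calls of this list were lost in no.1 and all of them in no.2.

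For 36 of the enzymes at least 2 probes passed the filter, which allows their probes to be set against each other by fold change. Among enzymes not called by the probe of highest mean, another probe was called for 5 in no.1 (Hdac8, Kat6b, Kmt5b, Setd1b and Tet2) and for 6 in no.2 (Hdac8, Kdm2b, Kmt5a, Kmt5b, Sirt6 and Tet2). The probes so called for Kdm2b and Tet2, and 1 of those for Kmt5b, were well above background on only 3 or 4 arrays. In no.1 against the control, 9 of these enzymes had probes of both signs, and the median range between the probes of 1 enzyme was 0.41. Kdm2a and Kdm2b, which bind unmethylated CpG islands and act on H3 lysine 36, had probes called in both directions. For Kdm2a, the brightest probe rose by 0.70 (adjusted p = 0.045), while another fell by 0.76 (value -0.76, adjusted p = 0.028). For Kdm2b, the brightest probe rose by 0.97 (adjusted p = 0.014), while another fell by 0.99 (value -0.99, adjusted p = 0.013) and fell by 0.95 in no.2 too (value -0.95, adjusted p = 0.025). The Kdm2b probe that fell was well above background on 3 arrays only, so the size of its fall is not known. The remaining Kdm2b probe, well above background on all 6 arrays, was at 0.73 in no.1 and 0.49 in no.2 and was not called. A rise of Kdm2a or Kdm2b therefore holds for single probes, not for the gene as a whole, and which transcripts the probes detect was not tested. Setd1b had 1 probe called lower (-1.44, adjusted p = 0.022), matched to a predicted transcript, and others that were not called (0.05 and 0.30).

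**Figure D4:**
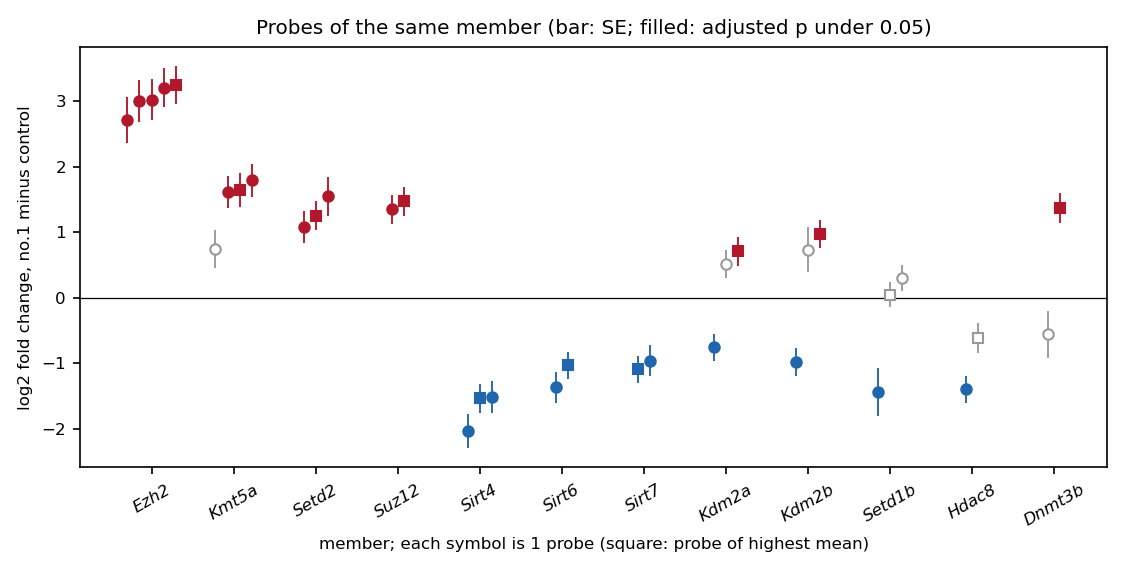
Log2 fold change with its standard error in no.1 against the control for each probe of 12 enzymes; squares mark the probe of highest mean, and filled symbols passed an adjusted p of 0.05. All 5 probes of Ezh2 lay between 2.71 and 3.24 and all 3 of Sirt4 between -2.04 and -1.51, whereas Kdm2a and Kdm2b each had 1 probe called higher and 1 called lower.

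In no.1 against no.2, the comparison named by the series' design text, limma called none of the 67 enzymes and 0 of the 23060 genes (0%). At an unadjusted p under 0.05 there were 12 enzymes and 3825 genes (16.6%). The lowest adjusted p of the enzymes was 0.282. Suz12, Eed, Kmt5a, Ezh2, Sirt1 and Setd2 had the lowest p on the higher side among those above background on all 4 arrays and not overlapping, with values of 0.96, 0.79, 0.89, 0.94, 0.56 and 0.58. On the lower side these were Sirt6, Sirt2, Sirt3, Kdm4b, Hdac6 and Sirt4, with values of -0.67, -0.64, -0.59, -0.56, -0.47 and -0.45. Sirt2 was at 2.26 and 2.70 in no.1, with 3.12 and 3.12 in no.2, and Hdac6, a cytoplasmic tubulin deacetylase, at 3.04 and 3.23 against 3.60 and 3.62. None of these differences passed the correction. The groups did not overlap for 17 enzymes that were higher and 22 that were lower in no.1, where 22.5% and 25.4% of all genes did not overlap.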

How the data were processed

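RNA of 3 groups was hybridised to 2 Agilent 1-colour arrays each. The deposited scanner files hold intensity values from Feature Extraction 12.1.1.1 per the file headers, whereas version 9.5.1.1 stands in the submitters' processing notes; the processed signal is background-subtracted within the array and not normalized between arrays. The value matrix deposited with the series holds intensity values whose processing is not stated; on each array at least 99.97% of its values were within 1% of the processed signal after quantile normalization on the linear scale (column median 5.16), and 0 of its columns lacked a sample. It served as an alternative. The file headers name build mm9, so RefSeq tables of GRCm38.p6 were used for names and promoter sequences only; 32994 probes had a symbol.

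The deposited processed signal was taken to log2, and the 75th percentile of each array's non-control probes was subtracted. Outlier spots were left out where a probe had others, and no probe of the enzymes was saturated (0). A gene was its probe of highest mean, tested where 1 or more groups had that probe well above background on each of its arrays. limma 3.58.1 (lmFit, eBayes) in R 4.3.3 was fitted to group means over all 6 arrays (3 residual degrees of freedom), with Benjamini-Hochberg adjustment over 23060 genes and a threshold of 0.05; the code was tested on simulated data. Python 3.11.15 and matplotlib 3.10.9 drew the plots. The number of arrays limits the precision.

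Full values are given for the PRC2, DNA methyltransferase and TET genes, for the 10 largest called changes in each direction against the control (above background on all arrays and non-overlapping), and for the 6 lowest p in each direction between no.1 and no.2; other called enzymes named with levels were added. Up to 4 called genes of lowest p were eligible per list. The enzymes, roles, lists and motifs were chosen with earlier results of these data known. The normexp alternative (offset 50) used the median signal because the files hold no mean signal. All arrays lay on 1 slide, where no.1 took columns 1 and 2 of row 2 and no.2 took columns 3 and 4, so an effect of the column cannot be told apart from the difference between these groups.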

Additional observations from a re-analysis of the deposited data

How the results depend on the processing

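Of the 18 alternatives, 17 gave values by enzyme, and these kept the sign of most results. Of the values of named enzymes recomputed under those 17, 1051 stayed on the same side of the threshold, 201 lost and 11 gained a call, and 42 turned. These include the values between no.1 and no.2, where nothing was called in the main setting and so no call could be lost. With spike-in scaling the genes called rose to 19374 in no.1 and 15638 in no.2 (enzymes 64 and 61), and with no filter on dim probes to 24873 and 16476, with 8296 genes and 3 enzymes called between no.1 and no.2. With normexp correction 28 enzymes were called in no.2. With the control arrays averaged the genes called were 4846 and 1246, and the enzymes 11 and 2. With 1 array left out at a time, genes called ranged from 4999 to 12054 in no.1, from 1298 to 6367 in no.2 and from 0 to 117 between no.1 and no.2 (117 without the second no.1 array), and enzymes from 10 to 35, from 2 to 14 and 0 throughout. In no.1 the low counts of enzymes came without the first or second control array (13 and 10) or the first no.1 array (16), and in no.2 without either control array (2 each) or the second no.2 array (4). Over 22756 probes the deviations of same-numbered arrays correlated at r -0.05 (control and no.1), 0.00 (control and no.2) and 0.19 (no.1 and no.2, whose file names give same-numbered arrays the same hours), and the labels state no pairing; with the replicate block 31, 11 and 0 enzymes and 10572, 6056 and 0 genes were called. Higher calls made up 44.8% of all calls in no.1 in the main setting, 54.3% after quantile normalization and 69.7% with the median probe; for no.2 these were 42.8%, 54.7% and 69.0%. The cause of these shifts was not tested.

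The values listed here cover the PRC2, DNA methyltransferase and TET genes, the called enzymes, and those of lowest p between no.1 and no.2. Other enzymes that were not called also turned with spike-in scaling and are left out. Values that turned with spike-in scaling were, in no.1 against the control, Ezh1 at 0.94, Hdac9 at 0.93, Kat8 at 1.20, Kdm4b at 0.95, Setd4 at 1.27, Sirt3 at 0.99, Sirt4 at 0.43, Sirt5 at 0.85, Sirt6 at 0.93, Sirt7 at 0.87, Tet1 at 1.53 and Tet3 at 1.69. In no.2 against the control they were Ezh1 at 0.67, Sirt4 at 0.24, Sirt7 at 0.45, Tet1 at 1.11 and Tet3 at 0.98. In no.1 against no.2 they were Dnmt3a at 0.44, Ezh1 at 0.27, Hdac6 at 0.17, Kdm4b at 0.08, Sirt3 at 0.051, Sirt4 at 0.19, Tet1 at 0.42 and Tet2 at 0.60. With the median probe, Tet3 was at 0.16 in no.1, Tet1 at 0.10 in no.2 and Tet2 at 0.076 between no.1 and no.2. With normexp correction Hdac2 was at -0.19 in no.1, and Dnmt3b at -0.10 and Tet3 at -0.17 between no.1 and no.2. With the mean over probes Tet3 was at 0.10 in no.1, 0.45 in no.2 and -0.35 between them. With 1 array left out at a time, Tet1 in no.2 ranged from -0.53 to 0.10, and between no.1 and no.2 Dnmt3a ranged from -0.77 to 0.36, Dnmt3b from -0.17 to 0.22, Tet2 from -0.545 to 0.47 and Tet3 from -0.22 to 0.365. Signal near background limits Hdac9, Hdac11, Kdm6a, Kdm7a and Hdac2, each below background on at least 1 array.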
